A study of Mus musculus with 42 samples.

Results

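Transcripts of 9 genes of the NRF2 antioxidant response were followed in 42 mouse kidneys. The genes were taken by symbol, Nfe2l2, Keap1, Gclc, Gclm, Gsr, Txnrd1, Srxn1, Nqo1 and Hmox1, out of 54532 genes in the deposited tables, and each symbol matched 1 row in every table. All 9 passed the filter on low counts and reached a mean of 5 FPKM (sequenced fragments scaled by transcript length and library size) in every comparison. FPKM is a level per length, so it can be set side by side between genes.

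The mice were on a C57BL/6 background and fell into 14 groups of 3 libraries, made from poly-A RNA of whole kidney without strand information. In the CaggCreERT2 cohort, taken at day 30, a whole-body Cre was switched on by tamoxifen given to the lactating mothers. Its groups were control, Tsc2 KO (Tsc2 fl/fl), Tfeb KO (Tfeb fl/fl) and a double knockout of both genes (DKO), and the controls were exposed to tamoxifen as well. The study gives the controls of this sequencing comparison as Cre-positive mice without floxed Tsc2. In the KspCre cohort, taken at day 50, Cre was driven by the cadherin 16 promoter in kidney tubule epithelium, with the same 4 genotypes and Cre-negative controls. In the KspCre drug cohort, also taken at day 50, control, Tsc2 KO and DKO mice received vehicle or rapamycin, an inhibitor of mTORC1, at 1 mg/kg in 11 injections from day 25. Cells without active Cre, such as the vessels and leukocytes of KspCre mice, remain in whole-kidney RNA. The labels number the replicates and do not say how the animals were related, so p-values measure the spread between these kidneys.

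NRF2, encoded by Nfe2l2, is a transcription factor that pairs with small MAF proteins on the antioxidant response element. In unstressed cells KEAP1 holds NRF2 and passes it to a CUL3 ubiquitin ligase for degradation, so the amount of NRF2 protein is set largely after transcription. Oxidants and electrophiles modify KEAP1, NRF2 then accumulates, and genes of glutathione synthesis, thioredoxin reduction, quinone detoxification and heme breakdown are induced. TSC2 restrains mTORC1, and TFEB, a lysosomal transcription factor, is the second gene deleted in these mice. Several of the genes below have further regulators, among them BACH1 for Hmox1 and AP-1 for Srxn1.

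Libraries held between 14926050 and 22807605 counted reads. Tsc2 was 3.54 to 4.55 FPKM in the Tsc2 KO kidneys without rapamycin and 8.59 to 10.6 FPKM in the controls without rapamycin. With rapamycin it was 5.06 to 6.5 FPKM in Tsc2 KO kidneys, above those with vehicle by 0.49 on the log2 scale (adjusted p = 0.00199), and vehicle-treated DKO kidneys were above Tsc2 KO by 0.58 (adjusted p = 0.000843). The part of these Tsc2 differences in the comparisons below was not tested. Tfeb was 1.99 to 3.48 FPKM in CaggCreERT2 DKO, 2.73 to 3.73 FPKM in Tfeb KO and 4.57 to 8.02 FPKM in control kidneys, and Tfeb KO against control was not called (-0.80, adjusted p = 0.394). In KspCre mice the Tfeb KO kidneys had 4.32 to 5.25 FPKM of Tfeb against 5.85 to 6.24 FPKM in controls, a difference that was not called either (adjusted p = 0.627). KspCre DKO kidneys held 2.65 to 4.09 FPKM of Tfeb, called against control (-0.88, adjusted p = 0.041) but not against Tsc2 KO, which held 3.66 to 6.12 FPKM (-0.48, adjusted p = 0.36). With vehicle Tfeb was 3.89 to 4.7 FPKM in controls, 5.58 to 6.09 FPKM in Tsc2 KO and 2.57 to 3.18 FPKM in DKO kidneys, and DKO against Tsc2 KO was called (-1.07, adjusted p = 0.000667). In the CaggCreERT2 cohort 4 libraries carry other genotype names in the count table than in the FPKM table. Here the libraries are named as in the FPKM table, where Tsc2 was 9.05 to 10.2 FPKM in Tfeb KO and 4.82 to 5.64 FPKM in DKO kidneys. The count table names this DKO 1 as Tfeb KO 3, and this Tfeb KO 3 as DKO 3. Its Tfeb KO group thus holds a kidney with Tsc2 at the DKO level, and its DKO group a kidney with Tsc2 at the control level. The Tsc2 values therefore go with the names of the FPKM table. Cyp11b1, a defining adrenal cortex enzyme, reached 2.71 FPKM or more in CaggCreERT2 Tfeb KO 1 and 2, vehicle-treated Tsc2 KO 1 and 2 and vehicle-treated DKO 1 and 2. It was at most 0.019 FPKM in every other library. The 5 summed adrenal cortex markers were 1320 and 50.8 FPKM in these Tsc2 KO kidneys and 303 and 4260 FPKM in these DKO kidneys. In vehicle-treated controls they were 1.34 to 1.64 FPKM. In the drug cohort these transcripts thus coincide with the vehicle-treated knockout groups. KspCre DKO 1 held 712 FPKM of 12 summed macrophage markers, whereas the other 11 libraries of that cohort held 46.9 to 163 FPKM. It also held 33.8 FPKM of 6 summed T cell markers, against 1.99 to 7.41 FPKM in those 11 libraries. By Xist and Y-linked transcripts the CaggCreERT2 controls were male and the Tfeb KO mice female, 2 of 3 Tsc2 KO and 1 of 3 DKO mice were female, and all KspCre mice were female.

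The 9 genes did not move as a block. Hmox1 and Srxn1 were higher in Tsc2 KO than in control kidneys in all 3 cohorts, Gclm was lower in all 3, and Txnrd1 was called in no comparison. To be called, a gene needed an adjusted p no higher than 0.05 and a mean of 5 FPKM or more in a compared group. In CaggCreERT2 mice 2 of 9 genes were called higher and 2 lower, where 38.4% of all genes at this FPKM were called, 23% higher and 15.5% lower. In KspCre mice 2 were higher and 3 lower (18.2% of all genes called, 9.42% higher and 8.74% lower), and in vehicle-treated mice 3 were higher and 1 lower (48.5% called, 23.8% higher and 24.6% lower). The median log2 fold change of the 9 genes was 0.09, 0.01 and 0.06 in these cohorts, against 0.00, -0.01 and 0.01 over all genes tested. The plot of fold changes for all 9 genes shows these calls.

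**Figure D1:**
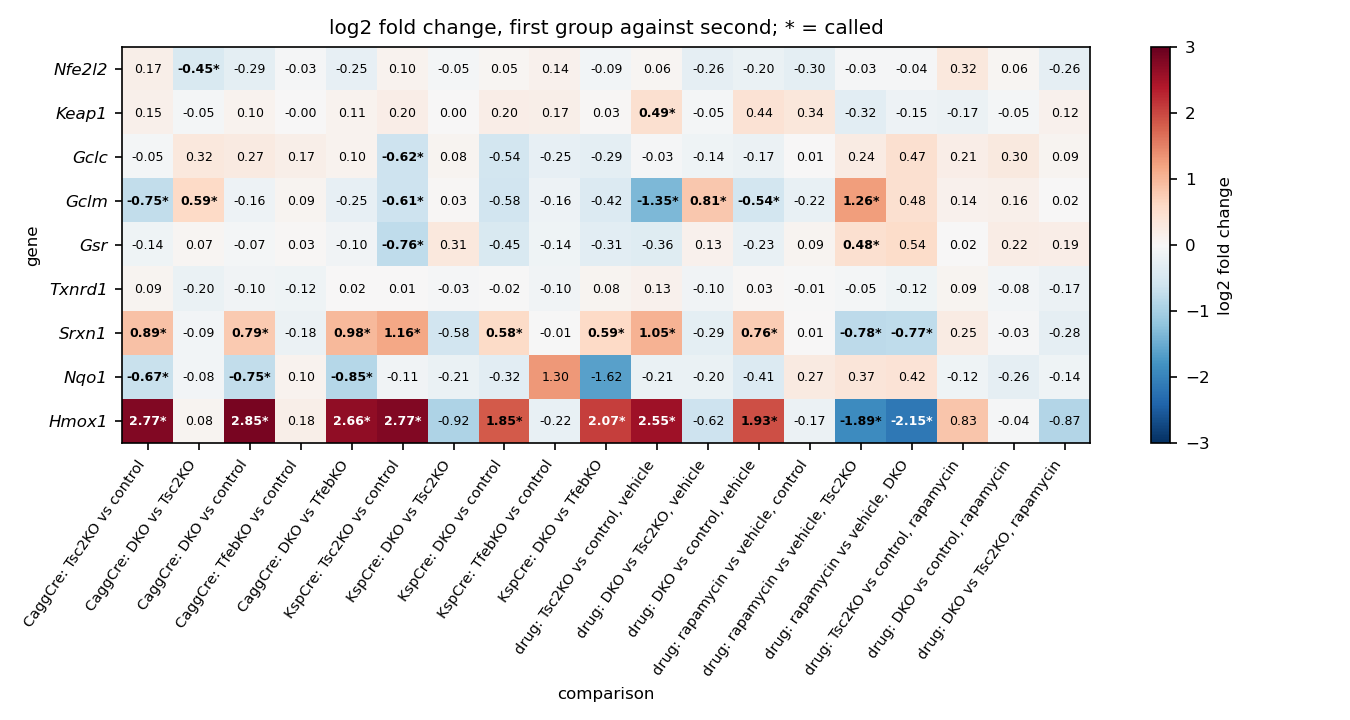
Log2 fold change of the 9 genes (rows) in 19 comparisons of groups (columns), first group against second, from edgeR with 3 kidneys per group. An asterisk marks a called gene. The Hmox1 row holds values between -2.15 and 2.85, and the Txnrd1 row has no asterisk.

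The 9 genes were also read against loss of Tfeb. Between DKO and Tsc2 KO kidneys, 1 gene was higher and 1 lower in CaggCreERT2 mice (14.5% of all genes called, 6.91% higher and 7.56% lower), and 1 was higher and none lower in vehicle-treated mice (29.5% called, 16.9% higher and 12.6% lower). None was called in KspCre mice, where 0.286% of all genes were called, 0.117% higher and 0.169% lower. There 2 of the 9 had an unadjusted p under 0.05, beside 1063 of the 7700 genes that reached the FPKM minimum, and DESeq2 called 1 of the 9. Between DKO and control kidneys, 2 genes were higher and 1 lower in CaggCreERT2 mice (14.9% of all genes called, 10.2% higher and 4.73% lower). In KspCre mice 2 were higher (3.89% called, 2.33% higher and 1.56% lower), and with vehicle 2 were higher and 1 lower (8.42% called, 5.37% higher and 3.05% lower). Against Tfeb KO kidneys, DKO kidneys had 2 genes higher and 1 lower in CaggCreERT2 mice (18.1% called, 13.6% higher and 4.52% lower) and 2 higher in KspCre mice (8.09% called, 3.79% higher and 4.3% lower). With the genotype names of the count table, 0 of the 9 were called in CaggCreERT2 DKO kidneys against control or against Tfeb KO. Tfeb KO against control gave 0 calls by edgeR and DESeq2 in both cohorts (edgeR called 0.0256% of all genes, 0.0128% higher and 0.0128% lower, in CaggCreERT2 mice and 0% in KspCre mice). At an unadjusted p under 0.05 were 0 and 1 of the 9 genes, beside 607 of 7803 and 841 of 7476 genes that reached the FPKM minimum.

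Rapamycin changed 4 of the 9 genes in Tsc2 KO kidneys, 2 up and 2 down (38.5% of all genes called, 21.2% higher and 17.3% lower). In DKO kidneys it lowered 2 by edgeR (7.43% called, 2.73% higher and 4.7% lower), while DESeq2 called Gclm and Gsr higher there as well. In controls it changed 0 by edgeR or DESeq2 (0.0664% of all genes, all lower). There 2 of the 9 genes had an unadjusted p under 0.05, beside 1094 of the 7535 genes that reached the FPKM minimum. Among rapamycin-treated mice 0 of the 9 genes differed by either tool between any genotypes, where 0.821% of all genes differed between Tsc2 KO and control (0.688% higher and 0.132% lower), 0.0134% between DKO and control (all higher) and 0.397% between DKO and Tsc2 KO (0.119% higher and 0.278% lower). At an unadjusted p under 0.05 these 3 comparisons gave 2, 0 and 2 of the 9 genes. Of all genes that reached the FPKM minimum, 1108 of 7555, 282 of 7470 and 853 of 7566 did so. The difference between the rapamycin effects of Tsc2 KO and control mice was called for 4 genes, 1 positive and 3 negative (29.8% of all genes called, 17.2% positive and 12.5% negative). That between DKO and Tsc2 KO mice was called for 1 gene, which was negative (11% called, 2.93% positive and 8.11% negative).

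**Figure D2:**
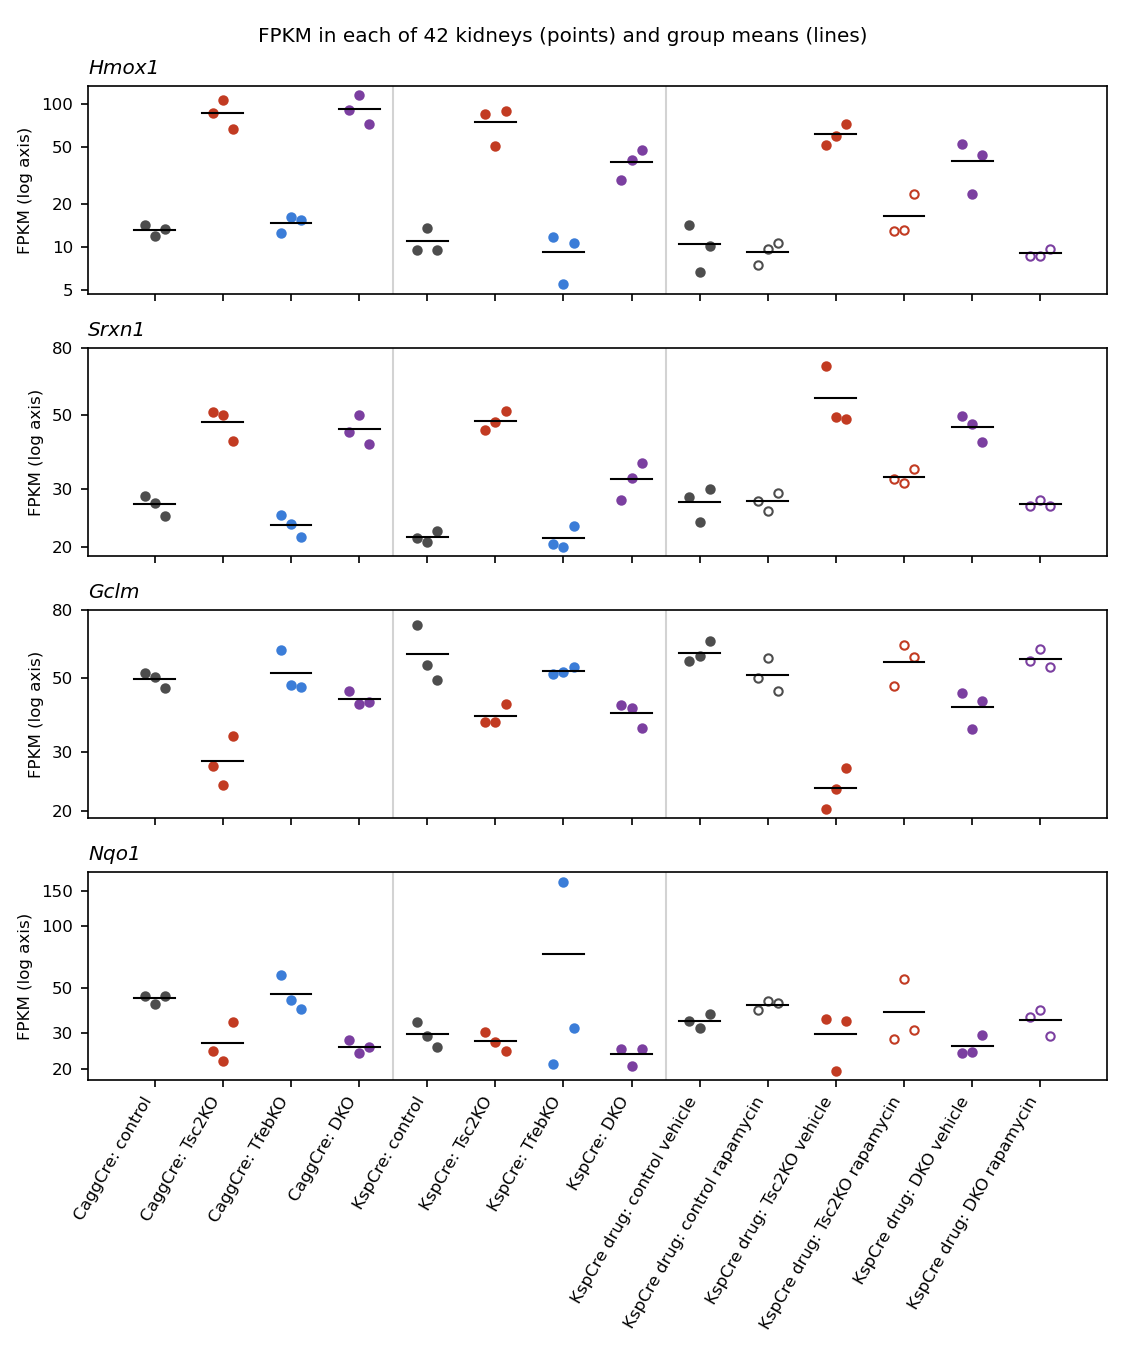
FPKM on a log axis of Hmox1, Srxn1, Gclm and Nqo1 in each of 42 kidneys (points, open for rapamycin) with the arithmetic mean of each group of 3 (lines). Hmox1 was 50.7 to 106 FPKM in Tsc2 KO kidneys without rapamycin and 6.68 to 14.3 FPKM in their controls, and 1 KspCre Tfeb KO kidney stands at 166 FPKM of Nqo1.

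Nfe2l2 (ENSMUSG00000015839, minus strand, mm10 chr2:75675513-75704641) encodes NRF2 itself. It ranged from 24 to 46.1 FPKM over the 42 kidneys. In CaggCreERT2 mice it was 30.8, 31.6 and 31 FPKM in controls, 33.7, 31.2 and 35.3 FPKM in Tsc2 KO, and 25.8, 24 and 24.7 FPKM in DKO kidneys. The DKO values lay below every other library of the cohort. DKO was below Tsc2 KO by a log2 fold change of -0.45 ± 0.09 (SE, adjusted p = 0.0109), and the call was lost without DKO 2 or without DKO 3 (adjusted p of 0.0517 to 0.0551). Tsc2 KO against control gave log2 fold changes of 0.17, 0.10 and 0.06 in the CaggCreERT2, KspCre and vehicle-treated cohorts, none called, with the 95% intervals reaching no further than -0.20 and 0.36.

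Keap1 (ENSMUSG00000003308, minus strand, mm10 chr9:21229730-21239361) encodes the sensor that keeps NRF2 low. It was the least abundant of the 9 transcripts in most groups, at 5.33 to 12.6 FPKM. In the drug cohort it was 8.81, 5.33 and 8.29 FPKM in vehicle-treated controls and 10.8, 10.1 and 10.6 FPKM in vehicle-treated Tsc2 KO kidneys. The groups did not overlap, and control 2 was the lowest of all 42 libraries. The log2 fold change was 0.49 ± 0.16 (adjusted p = 0.0226), and the call was lost without control 2 or without Tsc2 KO 1 (adjusted p of 0.0566 to 0.0947) and in a fit of the compared groups alone (0.46, adjusted p = 0.101). With rapamycin Keap1 was 9.92, 8.91 and 9.53 FPKM in controls and 10.1, 6.76 and 8.32 FPKM in Tsc2 KO kidneys, which overlap. The rapamycin effect in Tsc2 KO minus that in controls was -0.66 ± 0.22 on the log2 scale (adjusted p = 0.0472), a call that 14 of 18 libraries could remove when left out singly (adjusted p of 0.0561 to 0.119), and that the compared groups alone did not give (adjusted p = 0.098). Those libraries were every library of the drug cohort except vehicle-treated controls 1 and 3, Tsc2 KO rapamycin 1 and DKO vehicle 2. Without the 4 drug cohort libraries that held adrenal transcripts neither Keap1 call remained (0.48 with adjusted p = 0.197, and -0.65 with adjusted p = 0.208). That fit holds 1 vehicle-treated kidney in each knockout group, assumed to vary like the other groups, and its fold changes are close to those above. In CaggCreERT2 and KspCre mice Keap1 gave 0.15 and 0.20 for Tsc2 KO against control, neither called.

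Gclc (ENSMUSG00000032350, plus strand, mm10 chr9:77754535-77794485) encodes the catalytic subunit of glutamate-cysteine ligase, the first enzyme of glutathione synthesis. In KspCre mice it was 111, 66.1 and 116 FPKM in controls, and 58.9, 67.6 and 64.2 FPKM in Tsc2 KO kidneys. The groups overlap because control 2 lies within the Tsc2 KO range. The log2 fold change was -0.62 ± 0.18 (adjusted p = 0.0418). The call was lost when any of 10 of the 12 libraries was left out, all but control 2 and DKO 1 (adjusted p of 0.0506 to 0.164). It was also lost in a fit of the compared groups alone (-0.62, adjusted p = 0.0741) and with a replicate block (-0.61, adjusted p = 0.0734). In CaggCreERT2 and vehicle-treated mice the same comparison gave -0.05 and -0.03.

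Gclm (ENSMUSG00000028124, plus strand, mm10 chr3:122245557-122270732) encodes the modifier subunit that makes this ligase efficient. In CaggCreERT2 mice it was 52, 50.3 and 46.8 FPKM in controls, 27.3, 23.9 and 33.5 FPKM in Tsc2 KO, 60.8, 47.6 and 47.1 FPKM in Tfeb KO, and 45.7, 41.9 and 42.4 FPKM in DKO kidneys. The Tsc2 KO kidneys were the lowest of the 4 groups, and the DKO kidneys lay between them and the controls without overlap. Tsc2 KO was 1.69-fold below control (log2 fold change -0.75 ± 0.13, adjusted p = 0.00131), and DKO was 1.51-fold above Tsc2 KO (0.59 ± 0.13, adjusted p = 0.016). The call for DKO was lost without Tsc2 KO 1 or 2 or any 1 DKO library (adjusted p of 0.051 to 0.0666).

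In KspCre mice Gclm was 72.2, 54.9 and 49.5 FPKM in controls, 37, 37 and 41.8 FPKM in Tsc2 KO, 51.6, 52.1 and 54.1 FPKM in Tfeb KO, and 41.6, 40.8 and 35.5 FPKM in DKO kidneys. Here the DKO values overlap those of Tsc2 KO. Tsc2 KO was 1.53-fold below control (-0.61 ± 0.14, adjusted p = 0.0148), a call lost without control 1, Tsc2 KO 1 or Tsc2 KO 2 (adjusted p of 0.0556 to 0.0662). DKO against Tsc2 KO gave 0.03 with a 95% interval of -0.28 to 0.34.

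The lowest group mean of Gclm, 23.5 FPKM, was that of vehicle-treated Tsc2 KO kidneys. Gclm was 56.3, 58.1 and 64.6 FPKM in vehicle-treated controls, 20.3, 23.2 and 26.9 FPKM in Tsc2 KO and 45.1, 35.3 and 42.7 FPKM in DKO kidneys. With rapamycin the values were 50.1, 57.4 and 45.7 FPKM in controls, 47.5, 62.9 and 58 FPKM in Tsc2 KO, and 56.3, 61.2 and 54.2 FPKM in DKO. The 3 rapamycin groups overlap, whereas the 3 vehicle groups stand apart from each other. Vehicle-treated Tsc2 KO was 2.54-fold below control (-1.35 ± 0.14, adjusted p = 2.42e-06), and DKO was 1.75-fold above Tsc2 KO (0.81 ± 0.14, adjusted p = 0.00068). DKO was 1.45-fold below control (-0.54 ± 0.14, adjusted p = 0.0309), a call lost without vehicle-treated control 2 or 3 or DKO 2 or 3 (adjusted p of 0.0605 to 0.122) and in a fit of the compared groups alone (0.0926).

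Rapamycin raised Gclm 2.4-fold in Tsc2 KO kidneys (1.26 ± 0.14, adjusted p = 8.77e-06) and gave -0.22 in controls. The difference between these rapamycin effects was 1.49 ± 0.20 (adjusted p = 0.000111). In DKO kidneys the rapamycin effect was 0.48 with adjusted p = 0.0533 in edgeR, a difference that DESeq2 called, and its difference from that in Tsc2 KO was -0.78 ± 0.20 (adjusted p = 0.0244). That last call was lost without any of 7 libraries, vehicle-treated Tsc2 KO 1 or 2, Tsc2 KO rapamycin 2, vehicle-treated DKO 1 or 3, and DKO rapamycin 1 or 3 (adjusted p of 0.0535 to 0.0729), and in a fit of the compared groups alone (0.0599). Without the 4 libraries that held adrenal transcripts, 1 vehicle-treated kidney was left in each knockout group and was assumed to vary like the other groups. In that fit the rapamycin effect in Tsc2 KO was 1.07 (adjusted p = 0.0034), vehicle-treated Tsc2 KO against control was -1.17 (adjusted p = 0.00125), and DKO against Tsc2 KO was 0.67 and no longer called (adjusted p = 0.152). The calls for DKO against control (-0.49, adjusted p = 0.342) and for the difference between rapamycin effects of DKO and Tsc2 KO (-0.65, adjusted p = 0.335) were lost too.

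Proximal tubule markers moved with Gclm. The summed FPKM of 10 markers, among them the endocytic receptor Lrp2 and the phosphate transporter Slc34a1, was 5740 to 6220 in CaggCreERT2 controls and 1680 to 3050 in Tsc2 KO kidneys. It was 5370 to 6140 and 2480 to 4160 in KspCre mice, and 6050 to 6650 and 1240 to 2030 in vehicle-treated mice. Of the 10 markers 9, 6 and 8 were called lower in Tsc2 KO in these cohorts, beside 15.5%, 8.74% and 24.6% of all genes. DKO kidneys held 3900 to 5000 FPKM in CaggCreERT2 mice, 2520 to 4740 FPKM in KspCre mice and 3240 to 5560 FPKM with vehicle. Against Tsc2 KO 8, 0 and 8 of the 10 were called higher there, beside 6.91%, 0.117% and 16.9% of all genes. Rapamycin-treated Tsc2 KO kidneys held 5300 to 6350 FPKM, with 9 of the 10 called higher than with vehicle (21.2% of all genes). Against rapamycin-treated controls, at 5770 to 6630 FPKM, none was called, in a comparison that called 0.688% of all genes higher and 0.132% lower.

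Markers of other nephron segments also differed in these kidneys. Of 6 thick limb and distal convoluted tubule markers 5, 3 and 5 were called lower in Tsc2 KO against control in the CaggCreERT2, KspCre and vehicle cohorts (15.5%, 8.74% and 24.6% of all genes). Their sums were 1350 to 1680 FPKM in CaggCreERT2 controls and 750 to 912 FPKM in Tsc2 KO, but 1690 to 1780 and 2050 to 2280 FPKM in KspCre mice, and with vehicle they overlapped. In DKO against Tsc2 KO 4, 0 and 5 of the 6 were called higher, beside 6.91%, 0.117% and 16.9% of all genes. Summed podocyte markers were 143 to 158 FPKM in CaggCreERT2 controls and 40.1 to 61.4 FPKM in Tsc2 KO. They were 90.9 to 111 and 30.6 to 41.1 FPKM in KspCre mice, and 89.7 to 117 and 21.4 to 26.6 FPKM with vehicle. In each cohort 3 of 4 podocyte markers were called lower in Tsc2 KO, beside the same shares of all genes. Of 4 principal cell markers tested 3, 3 and 2 were called lower, and of 5 endothelial markers 0, 4 and 3, with 0 higher in either list. In bulk kidney RNA fewer cells of a type and less RNA per cell cannot be told apart, and the part of these marker differences in the Gclm differences was not tested.

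**Figure D3:**
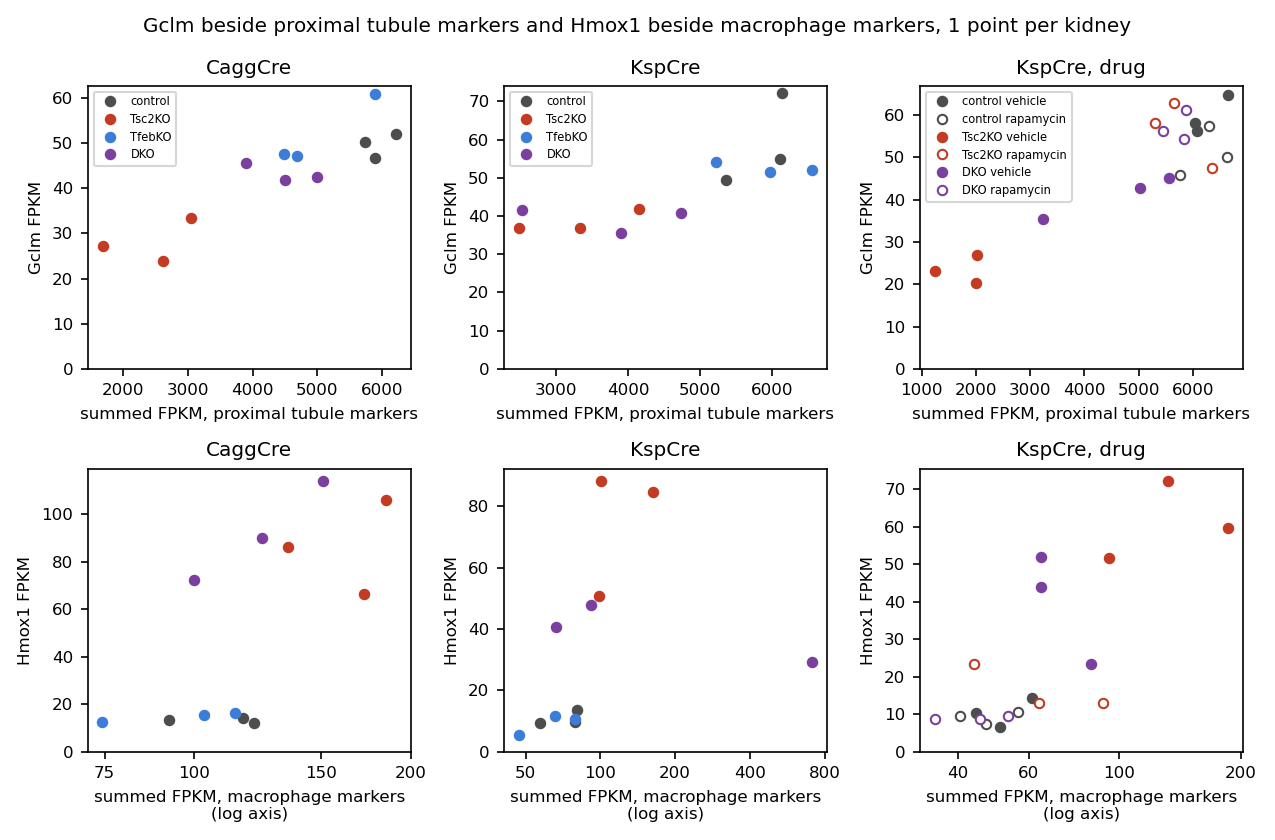
Gclm FPKM beside the summed FPKM of 10 proximal tubule markers (top) and Hmox1 FPKM beside the summed FPKM of 12 macrophage markers (bottom, log x axis), 1 point per kidney, open for rapamycin, by cohort. Vehicle-treated Tsc2 KO kidneys lie at 1240 to 2030 FPKM of tubule markers and 20.3 to 26.9 FPKM of Gclm, and KspCre DKO 1 lies at 712 FPKM of macrophage markers and 29.4 FPKM of Hmox1.

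Promoter windows of 250 bases before the start site were found in the RefSeq table (GRCm38.p6) for 6 of the 9 genes, Nfe2l2, Keap1, Gclm, Txnrd1, Srxn1 and Nqo1. They were searched on both strands for TGACNNNGC and for TGAGNNNGC, which are both forms of the antioxidant response element core. Some matches of the second also hold an AP-1 site, TGAGTCA. The third search was for CACGTG, the palindrome bound by TFEB and other helix-loop-helix factors. The first stood in 10.2% of 32851 windows of the table, the second in 14.4% and the third in 6.02%. Among the 6 genes, 3 held the first (Nfe2l2, Gclm and 1 of 3 start sites of Txnrd1), 1 held the second (Srxn1) and 0 held CACGTG. The windows of Gclm and Srxn1 are shown because these genes moved in opposite directions, and the Srxn1 window is printed only up to the gene's start in the deposited annotation, so that it holds 242 of the 250 bases searched. Both lie on the plus strand, Gclm at chr3:122245307-122245556 and Srxn1 at chr2:152105274-152105515, and capitals mark the matches.
Gclm: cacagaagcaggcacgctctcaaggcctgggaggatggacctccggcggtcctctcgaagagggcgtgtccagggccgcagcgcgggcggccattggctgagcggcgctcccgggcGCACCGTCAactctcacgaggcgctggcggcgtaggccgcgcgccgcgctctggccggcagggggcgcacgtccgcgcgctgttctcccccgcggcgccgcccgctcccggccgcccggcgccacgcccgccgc
Srxn1: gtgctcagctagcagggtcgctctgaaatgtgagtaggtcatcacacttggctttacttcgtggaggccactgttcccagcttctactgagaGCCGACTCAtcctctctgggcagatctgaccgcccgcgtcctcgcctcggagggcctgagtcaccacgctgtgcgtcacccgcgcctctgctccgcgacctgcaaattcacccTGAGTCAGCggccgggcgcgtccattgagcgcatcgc
The Gclm window held 1 match of TGACNNNGC, on the minus strand, and the Srxn1 window held 2 of TGAGNNNGC, 1 on each strand. Both windows thus held a form of the element core. A match is a description of letters, and no binding was measured.

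Gsr (ENSMUSG00000031584, plus strand, mm10 chr8:33652523-33698163) encodes glutathione reductase, which regenerates glutathione with NADPH. In KspCre mice it was 45.3, 57.6 and 72.8 FPKM in controls, 35.4, 30.9 and 37.6 FPKM in Tsc2 KO, and 39, 45.2 and 44.7 FPKM in DKO kidneys. The Tsc2 KO kidneys lay below all others. Tsc2 KO was 1.7-fold below control (-0.76 ± 0.18, adjusted p = 0.0164), a call lost without control 3, Tsc2 KO 1 or Tsc2 KO 2 (adjusted p of 0.0555 to 0.0721).

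In the drug cohort Gsr was 47.8, 37.6 and 42.1 FPKM in vehicle-treated Tsc2 KO kidneys and 67.5, 54.1 and 55.7 FPKM with rapamycin. These did not overlap, and the log2 fold change was 0.48 ± 0.16 (adjusted p = 0.0325). The call was lost without vehicle-treated Tsc2 KO 2 or 3 or rapamycin-treated Tsc2 KO 1 (adjusted p of 0.0809 to 0.135). It was also lost in a fit of the 2 groups alone (0.50, adjusted p = 0.0516). Without the libraries that held adrenal transcripts the log2 fold change was 0.50, but 1 vehicle-treated Tsc2 KO kidney was left, so no call is drawn from it. Gsr was 0.54 higher with rapamycin in DKO kidneys, which edgeR did not call (adjusted p = 0.0577) and DESeq2 did. Vehicle-treated Tsc2 KO against control gave -0.36 (adjusted p = 0.0846), and the CaggCreERT2 comparison gave -0.14.

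Txnrd1 (ENSMUSG00000020250, plus strand, mm10 chr10:82833951-82897712) encodes the cytosolic thioredoxin reductase and is a standard NRF2 target. It stayed between 18.3 and 28 FPKM in all 42 kidneys. In vehicle-treated mice it was 22.7, 21 and 23.9 FPKM in controls and 23.5, 24.7 and 25.6 FPKM in Tsc2 KO kidneys. Tsc2 KO against control gave 0.09 (95% interval -0.13 to 0.32), 0.01 (-0.26 to 0.27) and 0.13 (-0.11 to 0.36) in the CaggCreERT2, KspCre and vehicle-treated cohorts, none called.

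Srxn1 (ENSMUSG00000032802, plus strand, mm10 chr2:152105516-152111376) encodes sulfiredoxin, which returns over-oxidised peroxiredoxins to use, and its promoter window is printed above. In CaggCreERT2 mice it was 28.6, 27.2 and 24.8 FPKM in controls, 51.1, 50.1 and 41.7 FPKM in Tsc2 KO, 25, 23.4 and 21.4 FPKM in Tfeb KO, and 44.7, 50.3 and 41 FPKM in DKO kidneys. Tsc2 KO and DKO overlap each other and lie above both other groups. Tsc2 KO was 1.85-fold above control (0.89 ± 0.11, adjusted p = 0.000131), DKO was 1.73-fold above control (0.79 ± 0.11, adjusted p = 0.000813), and DKO against Tsc2 KO gave -0.09 with a 95% interval of -0.33 to 0.15. With the genotype names of the count table Srxn1 lost its calls for Tsc2 KO against control (0.89, adjusted p = 0.0577), DKO against control (0.53, 0.597) and DKO against Tfeb KO (0.29, 1).

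In KspCre mice Srxn1 was 21.2, 20.7 and 22.4 FPKM in controls, 45.2, 47.7 and 51.5 FPKM in Tsc2 KO, 20.4, 20 and 23.2 FPKM in Tfeb KO, and 27.8, 32.3 and 36 FPKM in DKO kidneys. DKO lay between control and Tsc2 KO with no overlap on either side. Tsc2 KO was 2.24-fold above control (1.16 ± 0.12, adjusted p = 0.000215). DKO was 1.49-fold above control (0.58 ± 0.12, adjusted p = 0.0262) and 1.51-fold above Tfeb KO (0.59 ± 0.12, adjusted p = 0.0187). The first of these DKO calls was lost without any 1 control, DKO 2 or DKO 3 (adjusted p of 0.0558 to 0.112), and the second without Tfeb KO 1 or 2 or DKO 3 (adjusted p of 0.05 to 0.0638), and both in fits of the compared groups alone (0.0657 and 0.114). DKO against Tsc2 KO gave -0.58 ± 0.12 with an adjusted p of 0.0706 in edgeR, and -0.59 with an adjusted p of 0.00134 in DESeq2.

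In the drug cohort Srxn1 was 28.3, 23.7 and 29.9 FPKM in vehicle-treated controls, 70.7, 49.6 and 48.8 FPKM in Tsc2 KO, and 49.7, 47.1 and 41.5 FPKM in DKO kidneys. With rapamycin it was 27.6, 25.7 and 29.2 FPKM in controls, 32.2, 31.2 and 34.5 FPKM in Tsc2 KO, and 26.6, 27.7 and 26.5 FPKM in DKO. All vehicle-treated knockout kidneys lay above all rapamycin-treated kidneys. Vehicle-treated Tsc2 KO was 2.07-fold above control (1.05 ± 0.13, adjusted p = 1.56e-05). Rapamycin lowered Srxn1 1.72-fold in Tsc2 KO (-0.78 ± 0.13, adjusted p = 0.000337) and 1.71-fold in DKO kidneys (-0.77 ± 0.13, adjusted p = 0.0035), and gave 0.01 in controls. The rapamycin effect in Tsc2 KO minus that in controls was -0.80 ± 0.19 (adjusted p = 0.00695). DKO was 1.69-fold above control with vehicle (0.76 ± 0.13, adjusted p = 0.00386).

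The highest Srxn1 value, 70.7 FPKM, was that of Tsc2 KO 1, a library with adrenal transcripts (179 FPKM of Cyp11b1). Without the 4 such libraries vehicle-treated Tsc2 KO was above control by 0.83 (adjusted p = 0.00137) and the rapamycin effect in Tsc2 KO was -0.57 (adjusted p = 0.0197). The other 3 Srxn1 calls of this cohort were lost, at 0.60 for DKO against control (adjusted p = 0.0888), -0.62 for rapamycin in DKO (0.0706) and -0.58 for the difference between rapamycin effects (0.0617), in a fit with 1 vehicle-treated kidney left in each knockout group, assumed to vary like the other groups.

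**Figure D4:**
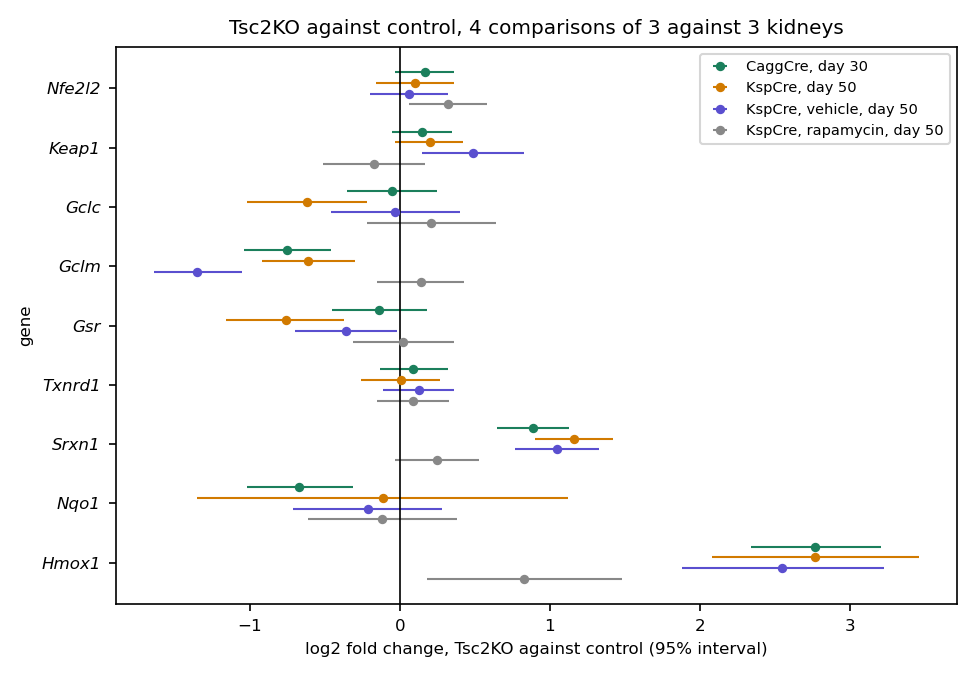
Log2 fold change of each of the 9 genes in Tsc2 KO against control kidneys with its 95% interval, in 4 comparisons of 3 against 3 kidneys (colours). Hmox1 and Srxn1 lie to the right and Gclm to the left of 0 in the 3 comparisons without rapamycin, and the Srxn1 and Gclm intervals include 0 under rapamycin.

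Nqo1 (ENSMUSG00000003849, minus strand, mm10 chr8:107388225-107403206) encodes a quinone reductase that is widely used as an NRF2 readout. In CaggCreERT2 mice it was 45.4, 41.8 and 45.8 FPKM in controls, 24.4, 21.8 and 34 FPKM in Tsc2 KO, 57.7, 43.6 and 39.2 FPKM in Tfeb KO, and 27.8, 23.8 and 25.7 FPKM in DKO kidneys. Tsc2 KO and DKO lay below both other groups. Tsc2 KO was 1.59-fold below control (-0.67 ± 0.16, adjusted p = 0.00944), and DKO was 1.68-fold below control (-0.75 ± 0.16, adjusted p = 0.0124) and 1.8-fold below Tfeb KO (-0.85 ± 0.16, adjusted p = 0.00562). The second call was lost without DKO 2 or DKO 3 (adjusted p of 0.0519 to 0.0632), and all 3 were lost with the genotype names of the count table (adjusted p of 0.0933, 0.545 and 1). The sexes differ between these groups. Controls were all male and Tfeb KO mice all female, so a sex covariate leans on the mixed Tsc2 KO and DKO groups. It cannot fully separate sex from genotype. With Xist as a covariate the values were -0.80 (adjusted p = 0.0271), -0.81 (0.0171) and -0.70, the last no longer called (0.154). Without the 2 Tfeb KO libraries that held adrenal transcripts the last comparison gave -0.59 (0.11), with 1 Tfeb KO kidney left that was assumed to vary like the other groups.

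The KspCre cohorts gave no call for Nqo1, and whether they differ from CaggCreERT2 mice was not tested. Tsc2 KO against control gave -0.11 with a 95% interval of -1.35 to 1.12 in the KspCre cohort and -0.21 with -0.71 to 0.28 in vehicle-treated mice, and both intervals hold the CaggCreERT2 value. DKO kidneys lay below controls without overlap in both, at -0.32 in KspCre mice and -0.41 with vehicle. All 4 groups share the spread behind the first interval, and in that cohort KspCre Tfeb KO 2 held 166 FPKM of Nqo1, while the other 2 Tfeb KO kidneys held 21.2 and 31.8 FPKM and the rest of the cohort 20.7 to 34 FPKM. In rapamycin-treated Tsc2 KO kidneys Nqo1 was 28, 55.3 and 31 FPKM, again with 1 kidney apart from the others.

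Hmox1 (ENSMUSG00000005413, plus strand, mm10 chr8:75093621-75100589) encodes heme oxygenase 1, which breaks heme into biliverdin, carbon monoxide and iron, and it had the largest Tsc2 KO fold changes of the 9. In CaggCreERT2 mice it was 14.3, 11.9 and 13.3 FPKM in controls, 86.2, 106 and 66.4 FPKM in Tsc2 KO, 12.5, 16.2 and 15.3 FPKM in Tfeb KO, and 89.9, 114 and 72.3 FPKM in DKO kidneys. DKO overlapped Tsc2 KO, and both lay far above the other groups. Tsc2 KO was 6.84-fold above control (2.77 ± 0.20, adjusted p = 4.16e-06), and DKO was 7.21-fold above control (2.85 ± 0.20, adjusted p = 4.96e-06). DKO against Tsc2 KO gave 0.08 with a 95% interval of -0.33 to 0.48. With the genotype names of the count table Hmox1 was still called for Tsc2 KO against control (2.77, adjusted p = 0.0309), but not for DKO against control (2.40, 0.43) or DKO against Tfeb KO (0.77, 1).

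In KspCre mice Hmox1 was 9.51, 13.6 and 9.57 FPKM in controls, 84.8, 50.7 and 88.1 FPKM in Tsc2 KO, 11.7, 5.47 and 10.6 FPKM in Tfeb KO, and 29.4, 40.6 and 47.7 FPKM in DKO kidneys. The DKO values lay between control and Tsc2 KO without overlap. Tsc2 KO was 6.83-fold above control (2.77 ± 0.32, adjusted p = 0.000388), and DKO was 3.6-fold above control (1.85 ± 0.31, adjusted p = 0.0121), a call lost without control 1 (adjusted p = 0.0677). DKO was 4.2-fold above Tfeb KO (2.07 ± 0.31, adjusted p = 0.0067). DKO against Tsc2 KO gave -0.92 with a 95% interval of -1.57 to -0.27, which was not called after adjustment (adjusted p = 0.215). The test of whether the Tfeb effect differed with and without Tsc2 called 0 of the 9 genes in either cohort by edgeR or DESeq2. Of all genes edgeR called 2.13% in CaggCreERT2 mice, 1.63% positive and 0.504% negative, and 0% in KspCre mice. At an unadjusted p under 0.05 were 2 and 1 of the 9, beside 1751 of 8341 and 929 of 8125 genes that reached the FPKM minimum.

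In the drug cohort Hmox1 was 14.3, 6.68 and 10.2 FPKM in vehicle-treated controls, 51.7, 59.6 and 72.2 FPKM in Tsc2 KO, and 52, 23.5 and 44 FPKM in DKO kidneys. With rapamycin it was 7.44, 9.59 and 10.7 FPKM in controls, 12.9, 13.1 and 23.5 FPKM in Tsc2 KO, and 8.67, 8.67 and 9.62 FPKM in DKO. Rapamycin-treated DKO kidneys lay within the range of controls, whereas rapamycin-treated Tsc2 KO kidneys lay above the rapamycin-treated controls without overlap. The latter difference was 0.83 with a 95% interval of 0.18 to 1.48 and was not called (adjusted p = 0.267), and rapamycin-treated DKO against Tsc2 KO gave -0.87 with an interval of -1.53 to -0.22 (adjusted p = 0.291). Vehicle-treated Tsc2 KO was 5.87-fold above control (2.55 ± 0.32, adjusted p = 1.32e-05), and DKO was 3.82-fold above control (1.93 ± 0.31, adjusted p = 0.00217). Rapamycin lowered Hmox1 3.71-fold in Tsc2 KO (-1.89 ± 0.31, adjusted p = 0.000268) and 4.43-fold in DKO kidneys (-2.15 ± 0.31, adjusted p = 0.00106), against -0.17 in controls. The rapamycin effect in Tsc2 KO minus that in controls was -1.72 ± 0.43 (adjusted p = 0.0108), while that in DKO minus that in Tsc2 KO was -0.26 with a 95% interval of -1.16 to 0.65. Without the libraries that carried adrenal transcripts these Hmox1 calls were made again with adjusted p-values up to 0.0339, but each such fit has 1 kidney in a vehicle-treated knockout group, whose spread is taken from the other groups.

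Macrophages clear red cells and express Hmox1, so their markers are given beside it. The 12 markers summed to 92.1 to 121 FPKM in CaggCreERT2 controls and 135 to 185 FPKM in Tsc2 KO, 57 to 80.8 and 98.8 to 163 FPKM in KspCre mice, and 44.5 to 61.1 and 94.8 to 186 FPKM in vehicle-treated mice. Of 11 tested markers, 5 of which reached the FPKM minimum, 2, 0 and 4 were called higher, beside 23%, 9.42% and 23.8% of all genes, and 1 was called lower in vehicle-treated mice (24.6%). Vehicle-treated DKO kidneys held 64.3 to 85.6 FPKM, above their controls. Against vehicle-treated Tsc2 KO 3 markers were called lower and 0 higher there (12.6% and 16.9% of all genes), with a median of -1.03. With rapamycin the sums were 40.6 to 56.5 FPKM in controls, 43.9 to 91.3 FPKM in Tsc2 KO and 35.1 to 53.2 FPKM in DKO, and 3 markers were called lower with rapamycin in Tsc2 KO (17.3% of all genes) and 2 lower and 1 higher in DKO (4.7% and 2.73%). Vsig4 stood at 0 in all 3 kidneys of several groups. KspCre DKO 1, with 712 FPKM of these markers and also the most T cell markers of its cohort, had the lowest Hmox1 of its group. CaggCreERT2 DKO kidneys held 99.9 to 151 FPKM of the markers, overlapping their controls, and at least 72.3 FPKM of Hmox1. The part of macrophages in the Hmox1 difference was not tested beyond these values.

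Red cell markers differed in DKO kidneys of the drug cohort. The 6 markers, hemoglobin genes Hba-a1, Hba-a2, Hbb-bs and Hbb-bt with Alas2 and Slc4a1, summed to 2080, 2180 and 393 FPKM in vehicle-treated DKO kidneys and 132 to 334 FPKM with rapamycin. Rapamycin lowered 5 of the 6 in DKO kidneys (4.7% of all genes), with a median of -2.81, and 3 were higher in vehicle-treated DKO than in control kidneys (5.37%). In vehicle-treated Tsc2 KO kidneys, where Hmox1 was higher than in controls, the sums were 33.4 to 118 FPKM against 221 to 311 FPKM in controls, and 3 were called lower (24.6%). Among vehicle-treated DKO kidneys Hmox1 was highest in DKO 1, at 2080 FPKM of these markers. DKO 3, at 393 FPKM of the markers, held 44 FPKM of Hmox1, and DKO 2, at 2180 FPKM, held 23.5 FPKM. The part of red cells in the Hmox1 differences of DKO kidneys was not tested.

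Summed tubular injury markers moved with both Hmox1 and Srxn1, and such a sum mainly follows its most abundant members. The 5 markers, Havcr1, Lcn2, Krt20, Vcam1 and Spp1, summed to 1350 to 1690 FPKM in CaggCreERT2 controls, 4980 to 7530 FPKM in Tsc2 KO and 3890 to 6460 FPKM in DKO kidneys. In KspCre mice the sums were 1190 to 1550 FPKM in controls, 5730 to 7590 FPKM in Tsc2 KO and 2590 to 3290 FPKM in DKO, so DKO lay between the others as it did for Hmox1 and Srxn1. With vehicle they were 1190 to 1230 FPKM in controls, 5090 to 7420 FPKM in Tsc2 KO and 1460 to 3300 FPKM in DKO. With rapamycin they were 982 to 1210 FPKM in controls, 1590 to 2380 FPKM in Tsc2 KO and 1130 to 1260 FPKM in DKO. Of the 5 markers, of which 3, 4 and 3 reached the FPKM minimum, 3, 2 and 2 were called higher and none lower in Tsc2 KO against control in the 3 cohorts, beside 23%, 9.42% and 23.8% of all genes called higher. Rapamycin lowered 2 in Tsc2 KO (17.3% of all genes) and 1 in DKO kidneys (4.7%). The part of tubular injury in the Hmox1 and Srxn1 differences was not tested.

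Summed intercalated cell markers lay above controls in KspCre Tsc2 KO and DKO kidneys. The 5 markers summed to 105 to 140 FPKM in KspCre controls, 219 to 395 FPKM in Tsc2 KO and 225 to 259 FPKM in DKO kidneys. With vehicle they were 107 to 151, 399 to 517 and 198 to 330 FPKM in these genotypes, and with rapamycin 129 to 148, 223 to 320 and 127 to 140 FPKM. In Tsc2 KO against control 3 of 5 were called higher in KspCre mice (9.42% of all genes), and 3 higher and 1, Slc26a4, lower with vehicle (23.8% and 24.6%). In CaggCreERT2 mice the sums were 168 to 171 FPKM in controls, 99.2 to 211 FPKM in Tsc2 KO and 91.2 to 127 FPKM in DKO, with none called higher and 1 lower in Tsc2 KO (23% and 15.5% of all genes). Summed proliferation markers were likewise 1.05 to 2.83 FPKM in KspCre controls and 11.9 to 16.4 FPKM in Tsc2 KO, where none of the 5 reached the FPKM minimum, and they overlapped in CaggCreERT2 mice (16.6 to 22.6 and 15.7 to 34.9 FPKM). The part of these cells in the differences was not tested.

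A list of 14 further regulators of the pathway was then read, which includes the small MAF partners, the repressors Bach1 and Bach2, the CUL3 ligase and proteins that compete for KEAP1. In Tsc2 KO against control 5 of 14 were called higher in CaggCreERT2 mice, 3 in KspCre mice, and 4 higher and 2 lower in vehicle-treated mice. The median log2 fold changes of the list were 0.19, 0.12 and 0.14, beside 0.00, -0.01 and 0.01 over all genes. Of these 14 genes 11, 10 and 10 reached the FPKM minimum, and of all genes that did, 23%, 9.42% and 23.8% were called higher and 15.5%, 8.74% and 24.6% lower. Sqstm1 (p62, an autophagy receptor that binds KEAP1) was 139, 133 and 142 FPKM in CaggCreERT2 controls and 285, 307 and 241 FPKM in Tsc2 KO kidneys, and the log2 fold changes in the 3 cohorts were 1.07, 0.90 and 1.07 (adjusted p = 5.86e-05, 0.00202 and 5.6e-06). Dpp3, a peptidase that also binds KEAP1, was higher by 0.90, 0.70 and 0.98 (adjusted p = 2.45e-05, 0.00169 and 2.54e-05). Mafk, a small MAF partner of NRF2, was higher by 0.62, 0.38 and 0.77 (adjusted p = 0.00498, 0.035 and 0.000328). All 3 genes were thus called higher in every cohort without rapamycin.

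Other regulators were called in fewer cohorts. Nfe2l1, an NRF2 relative, was higher in CaggCreERT2 (0.46) and vehicle-treated mice (0.62), Maff, another small MAF gene, in CaggCreERT2 mice (2.10), and Cul3 (-0.44) and Park7 (-0.35), an oxidation sensor, were lower in vehicle-treated mice. In DKO against Tsc2 KO kidneys Dpp3 was the 1 regulator called in CaggCreERT2 mice (-0.55, adjusted p = 0.00323, with 6.91% of all genes higher and 7.56% lower). With vehicle 3 were lower, Sqstm1 (-0.43, adjusted p = 0.0185), Dpp3 (-0.39, adjusted p = 0.0386) and Gsk3b (-0.35, adjusted p = 0.0453), a kinase that promotes NRF2 degradation, and 1 was higher, Park7 (0.48, adjusted p = 0.0127), beside 12.6% of all genes lower and 16.9% higher. Rapamycin lowered Sqstm1 (-0.78), Dpp3 (-0.83), Mafk (-0.66) and Nfe2l1 (-0.52) in Tsc2 KO kidneys and raised Park7 (0.35), 4 lower and 1 higher beside 17.3% and 21.2% of all genes. In DKO kidneys it lowered 2, Sqstm1 (-0.58) and Dpp3 (-0.66), beside 4.7% of all genes.

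A list of 48 wider NRF2 target genes, of which 46 or 47 were tested, moved in both directions. In Tsc2 KO against control 6 were called higher and 6 lower in CaggCreERT2 mice, 4 and 4 in KspCre mice, and 7 and 18 with vehicle, with medians of -0.00, 0.08 and -0.28 beside 0.00, -0.01 and 0.01 over all genes. The FPKM minimum was reached by 36, 36 and 35 of them, and of all genes that reached it 23%, 9.42% and 23.8% were called higher and 15.5%, 8.74% and 24.6% lower. Akr1b8, an aldo-keto reductase, rose by 2.82, 2.20 and 2.26 (adjusted p = 3.8e-05, 0.0455 and 0.00557), and Cbr3, a carbonyl reductase, by 1.38, 1.80 and 2.46 (adjusted p = 0.0241, 0.00179 and 7.5e-05). Abcc3, an exporter of organic anions, was lower, at -1.22, -2.43 and -2.25 (adjusted p = 0.00302, 0.00611 and 6.71e-05). The others named by size were Mgst1 (1.03), Osgin1 (-1.08) and Gstm2 (-0.87) in CaggCreERT2 mice, Ephx1 (0.95), Cbr1 (-1.22) and Blvra (-0.77) in KspCre mice, and G6pdx (0.90), Cbr1 (-1.79) and Osgin1 (-1.45) with vehicle. The list therefore held called genes of each sign in every cohort, as did the 9 genes.

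Against Tsc2 KO, DKO kidneys had 4 of these wider targets higher and 3 lower in CaggCreERT2 mice, none called in KspCre mice, and 15 higher and none lower with vehicle. Of all genes 6.91% were called higher and 7.56% lower in CaggCreERT2 mice, 0.117% and 0.169% in KspCre mice, so few that a count of 0 there is near the background, and 16.9% and 12.6% with vehicle, and 36 of the list reached the FPKM minimum in each. The largest were Me1 (1.08), Gstm2 (0.92), Gsta2 (0.61), Akr1b8 (-1.40), Mgst1 (-1.09) and Pgd (-0.33) in CaggCreERT2 mice, and Osgin1 (1.37), Me1 (1.33) and Gstm1 (1.14) with vehicle. Rapamycin in Tsc2 KO kidneys raised 13 and lowered 6, against 21.2% and 17.3% of all genes. The largest changes were Cbr1 (1.31), Gstm5 (1.07), Osgin1 (1.05), Akr1b8 (-2.49), Cbr3 (-1.59) and G6pdx (-0.98). Several glutathione S-transferases are near-identical copies of each other, so counts among them may be split by the counting.

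Among 28 other antioxidant enzymes, of which 25 reached the FPKM minimum, Tsc2 KO kidneys had 3 higher and 11 lower in CaggCreERT2 mice, 3 and 5 in KspCre mice, and 4 and 15 with vehicle, with medians of -0.32, -0.16 and -0.52. Of all genes at this FPKM 23% were higher and 15.5% lower in CaggCreERT2 mice, 9.42% and 8.74% in KspCre mice, and 23.8% and 24.6% with vehicle. Cat, the peroxisomal catalase, was lower in all 3 cohorts, at -1.22, -0.83 and -1.90. Ggt1, which breaks down extracellular glutathione on the proximal tubule brush border, was lower as well, at -1.25, -1.58 and -2.81. The stress-induced sestrin Sesn3 rose by 1.40, 1.96 and 1.75. Rapamycin in Tsc2 KO kidneys raised 12 of the 28 enzymes and lowered 2 (21.2% and 17.3% of all genes). Ggt1 rose by 2.45, Cat by 1.67 and Gpx1, a glutathione peroxidase, by 1.40, while Sesn3 (-1.29) and Sesn1 (-0.68) fell. DKO against Tsc2 KO gave 6 higher and 1 lower in CaggCreERT2 mice (6.91% and 7.56% of all genes), none in KspCre mice (0.117% and 0.169%), and 16 higher and none lower with vehicle (16.9% and 12.6%). Catalase and Ggt1 are abundant in the proximal tubule, whose markers fell in the same kidneys, and the part of that difference was not tested.

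The transcripts most like each gene over the 42 kidneys were found by Pearson's r of log2(FPKM + 1), centred within each cohort, over 9152 genes. Hmox1 was most like Ptgds (0.965), Ctsb (0.965) and Hexa (0.962), Srxn1 most like Serpinb6a (0.96), Dpysl3 (0.952) and Ctsl (0.944), and Gclm most like Them7 (0.961), Slc27a2 (0.955) and Lyplal1 (0.955). Keap1 came closest to Jund (0.845), Gsr to Lrrc1 (0.838), Nqo1 to Slc7a13 (0.844), Nfe2l2 to Eif3i (0.729), Txnrd1 to Pcgf3 (0.705) and Gclc to Nudt19 (0.624). The points share their libraries and groups, so these are descriptions without a test.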

How the data were processed

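Whole-kidney RNA-seq of 42 mice (14 groups of 3) was analysed. For each cohort there were 2 deposited tables, 1 with raw counts of reads for every gene and 1 in which the authors give FPKM, a level scaled by transcript length and sequencing depth. The submitters' processing notes name mm10, STAR 2.6.1d, HISAT2 2.0.5, featureCounts 1.5.0-p3 and DESeq2 1.20.0, without roles. All value columns were mapped. Counts were joined to FPKM columns by their constant ratio, which showed the conflict of 4 CaggCreERT2 names. Differential expression was tested in R 4.3.3 with edgeR 4.0.16 (filterByExpr, TMM, quasi-likelihood F-test), all groups of a cohort in 1 fit without covariates, testing 16348, 16631 and 17027 genes in the CaggCreERT2, KspCre and drug cohorts. Benjamini-Hochberg adjustment covered every gene tested. Values after ± are standard errors of log2 fold changes. The 0.05 and 5 FPKM thresholds follow the study's definition. The chi-square between replicates of a group was 16.4 to 87.5 per gene, where sampling noise alone gives about 1, so no 2 libraries of a group were duplicates and spread between kidneys rather than depth sets the precision. Libraries of different groups were not compared in this way. Libraries held 14926050 to 22807605 counted reads. Intervals are 95%.

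The 9 genes and the gene lists were chosen with earlier results of these data known. Named genes were the 9, any of 14 regulators, up to 3 called genes per direction with the largest change from the 2 longer lists per comparison, and the 3 most alike transcripts per gene, of which all or the first are printed. Alternatives were DESeq2 1.42.0, the compared groups alone, RLE scaling, no count filter, no FPKM minimum, replicate blocks, count-table names, Xist as a covariate (CaggCreERT2 only, the other cohorts being of 1 sex), a pseudocount of 0.1 in place of 1 for the likeness of patterns, and each library left out. Leaving out the libraries with at least 1 FPKM of Cyp11b1 was added after seeing the data. Without strand information, reads of overlapping antisense genes cannot be told apart. Promoters were read with Python 3.11.15.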

Additional observations from a re-analysis of the deposited data

Results flagged for a closer look

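The effect of rapamycin was called as different between genotypes for 4 genes, tested as an interaction of 3 kidneys per group. In Tsc2 KO minus control mice it was 1.49 for Gclm (adjusted p = 0.000111), -1.72 for Hmox1 (adjusted p = 0.0108), -0.80 for Srxn1 (adjusted p = 0.00695) and -0.66 for Keap1 (adjusted p = 0.0472). In DKO minus Tsc2 KO mice it was -0.78 for Gclm (adjusted p = 0.0244). The Keap1 call was lost when any of 14 of 18 libraries was left out (adjusted p of 0.0561 to 0.119), without the count filter (0.0617) and in a fit of the compared groups alone (0.098). The second Gclm call was lost without any of 7 libraries (adjusted p of 0.0535 to 0.0729) and in the compared groups alone (0.0599). Without the libraries that held adrenal transcripts, which leaves 1 vehicle-treated kidney per knockout group, the calls for Keap1 (adjusted p = 0.208), Srxn1 (0.0617) and the second for Gclm (0.335) were lost, while the first for Gclm (0.00487) and that for Hmox1 (0.0195) were made again. No gene had groups that moved fully apart in opposite directions in different cohorts, treatments or genotypes under the same comparison. Groups of 3 are too small for the test of a single outlying kidney that was planned, so Nqo1 in KspCre Tfeb KO 2 (166 FPKM) is given as a value.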

How the results depend on the processing

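Of 40 calls, 40 were kept with DESeq2, 40 with RLE normalization, 40 without the FPKM minimum, 39 without the filter on low counts, 32 in fits of the compared groups alone, and 530 of 594 when each library was left out in turn. Spread between 3 kidneys, not depth, limits these results, and the cause of each change below was not tested. The labels do not say whether replicate numbers pair the samples. Deviations from group means correlated at -0.361 to 0.356 between same-numbered libraries of different groups. Their medians were 0.0117, -0.0362 and -0.00431 in the CaggCreERT2, KspCre and drug cohorts. For libraries with other numbers they were 0.0071, -0.00602 and 0.02. The replicate block removed 1 call, Gclc in KspCre Tsc2 KO (-0.61, adjusted p = 0.0734), leaving 4 genes there. It gave 3 rather than 2 genes for rapamycin in DKO.

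With the genotype names of the count table, 4 of 12 CaggCreERT2 calls were kept. Those names put a kidney with Tsc2 at the DKO level into Tfeb KO, and a kidney with Tsc2 at the control level into DKO. All groups share 1 estimate of spread, so calls between control and Tsc2 KO, whose names were the same, were lost too. There Srxn1 stayed at 0.89 and Nqo1 at -0.67. The counts were 2 for Tsc2 KO against control, 0 for DKO against control and 0 for DKO against Tfeb KO, and DKO against Tsc2 KO turned to 0.13 for Nqo1 and -0.38 for Hmox1. With Xist as a covariate, which cannot fully separate sex from genotype here, 11 of 12 were kept and the last value was -0.11. DESeq2 gave 1 gene for KspCre DKO against Tsc2 KO (Srxn1) and 4 for rapamycin in DKO (Gclm, Gsr, Hmox1 and Srxn1). Fits of the compared groups alone gave 1 for KspCre DKO against control, 1 for DKO against Tfeb KO and 0 for the difference between the rapamycin effects of DKO and Tsc2 KO. Without the count filter KspCre Keap1 in DKO against Tsc2 KO was -0.00, and the Keap1 difference between rapamycin effects was -0.67 (adjusted p = 0.0617).

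Without the libraries that held adrenal transcripts, which leaves 1 CaggCreERT2 Tfeb KO kidney and 1 vehicle-treated kidney per knockout group, assumed to vary like the other groups, 21 of 31 calls were kept. The drug cohort then had 0 genes for DKO against Tsc2 KO, 1 for DKO against control, 1 for rapamycin in DKO, 2 for the difference between rapamycin effects of Tsc2 KO and control and 0 for that of DKO and Tsc2 KO. Leaving out only the DKO or only the Tsc2 KO libraries gave the same counts where that group was compared, except for DKO against Tsc2 KO without the DKO libraries, where Gclm stayed called (0.87). For DKO against Tsc2 KO Gclc became 0.08, or 0.05 without those of Tsc2 KO only, and Txnrd1 0.03 without those of DKO only.

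Leaving out 1 library moved the number of called genes to 0 to 2 for CaggCreERT2 DKO against Tsc2 KO, 2 to 5 for KspCre Tsc2 KO against control, 0 to 2 for KspCre DKO against control, 1 to 3 for KspCre DKO against Tfeb KO, and 0 to 1 for the difference between the rapamycin effects of DKO and Tsc2 KO. Directions of uncalled genes turned in these ranges. For Tsc2 KO against control they were Gclc -0.11 to 0.07 and Gsr -0.26 to 0.01 in CaggCreERT2 mice, Txnrd1 -0.05 to 0.11 in KspCre mice, and Nfe2l2 -0.07 to 0.15, Gclc -0.14 to 0.07 and Nqo1 -0.35 to 0.03 with vehicle. For DKO against Tsc2 KO they were Keap1 -0.13 to 0.03, Gsr -0.03 to 0.16, Nqo1 -0.21 to 0.12 and Hmox1 -0.12 to 0.24 in CaggCreERT2 mice, and Keap1 -0.02 to 0.03, Gclm -0.01 to 0.09 and Txnrd1 -0.09 to 0.03 in KspCre mice. For rapamycin in Tsc2 KO they were Nfe2l2 -0.16 to 0.07, Txnrd1 -0.16 to 0.01 and Nqo1 -0.00 to 0.55. With a pseudocount of 0.1 the transcript most like Nqo1 was Tor1a (0.796).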
